A study of Rattus norvegicus with 11 samples.

Results

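The genes described here are 10 markers of macrophages, the phagocytes of the innate immune system, measured by RNA sequencing in rat white fat. They were chosen by symbol, as the rows of the deposited gene table named Cd68, Adgre1, Csf1r, Mrc1, Cd163, Lyve1, Trem2, Gpnmb, Itgax and Cd9, and make up 10 of its 25275 genes. The first 3 mark macrophages as a whole, Mrc1, Cd163 and Lyve1 mark resident macrophages, and the remaining 4 mark the lipid-associated state. The samples were retroperitoneal white fat of 11 ovariectomized wild-type female Wistar rats, 1 library per rat. All of them received degarelix, a blocker of the gonadotropin-releasing hormone receptor, and had eaten a western diet for 6 weeks from 10 weeks of age before surgery. In the degarelix plus FSH group (5 rats), osmotic pumps delivered follicle-stimulating hormone at 6 µg per kg per day, and in the degarelix only group (6 rats) the pumps carried vehicle. Food was limited for 12 days and then free for 7 days, and the fat was taken after a 4 h fast at 19 weeks of age. Both groups thus carried the same blocker, and rats without degarelix were not analysed here.

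Fat holds resident macrophages that lie along its vessels and between its cells, take up debris and buffer iron and lipid. In obesity, macrophages that surround dying fat cells take up their lipid and switch on a program known from mouse and human fat as lipid-associated, in which the lipid-sensing receptor encoded by Trem2 is required. Macrophages of both kinds depend on the growth factor receptor encoded by Csf1r.

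Library totals lay between 13163021 and 19837706 counts in degarelix plus FSH fat and between 16452117 and 23694602 counts in degarelix only fat, a difference with an exact two-sided permutation p of 0.0649. Levels are given as CPM, the count relative to the library total after trimmed-mean (TMM) scaling. They carry no gene length, so they compare 1 gene between rats and not 1 gene with another. All 10 markers had counts in all 11 libraries, from 23 counts for Trem2 in 1 library to 4213 for Gpnmb in another. The tissue label was met by 9 fat cell markers, whose summed level was 40910 to 54040 CPM in degarelix plus FSH fat and 37990 to 50720 CPM in degarelix only fat. One library stood apart by a gene of another cell type. Sox10, the transcription factor gene of Schwann cells and melanocytes, stood at 64.4 CPM in replicate 3 of degarelix plus FSH, against 2.10 to 4.81 CPM in the other libraries of its group and 1.94 to 3.96 CPM in degarelix only fat. The melanocyte genes Mlana, Tyr and Dct were listed at 0 in every library, which in this table need not mean that a gene was not expressed. Pmel, the other melanocyte gene listed, stood at 2.005 CPM in replicate 3 of degarelix plus FSH. In the other libraries it stood at 1.406 to 1.913 CPM with FSH and 1.079 to 1.518 CPM on degarelix only. In such bulk tissue, fewer macrophages and less RNA per macrophage cannot be told apart.

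FSH on top of degarelix moved none of the 10 macrophage markers past the threshold. At a threshold of 0.05 on the Benjamini-Hochberg adjusted p of edgeR's quasi-likelihood test, 0 of 10 were called, against 292 of the 12846 genes tested (2.27%). Of these genes, 155 were higher (1.21% of those tested) and 137 lower (1.07%) in degarelix plus FSH than in degarelix only fat. At an unadjusted p under 0.05 stood 1 of 10, Cd9, against 2904 of all genes (22.6%). DESeq2 called 0 of 10 as well. The groups overlapped for all 10 markers, while 557 of all genes (4.34%) had groups that did not overlap (2.54% higher and 1.8% lower in degarelix plus FSH fat). The median log2 change was 0.00 for the macrophage-wide markers, 0.24 for the resident ones and 0.02 for the lipid-associated ones, beside 0.01 for all genes. What the markers did do was vary from rat to rat. The spread of their log2 levels over the 11 rats lay between the 80.4th percentile of all genes (Csf1r) and the 99.3rd (Trem2). The intervals below are therefore wide, and all but that of Cd9 leave room for changes in both directions.

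**Figure D1:**
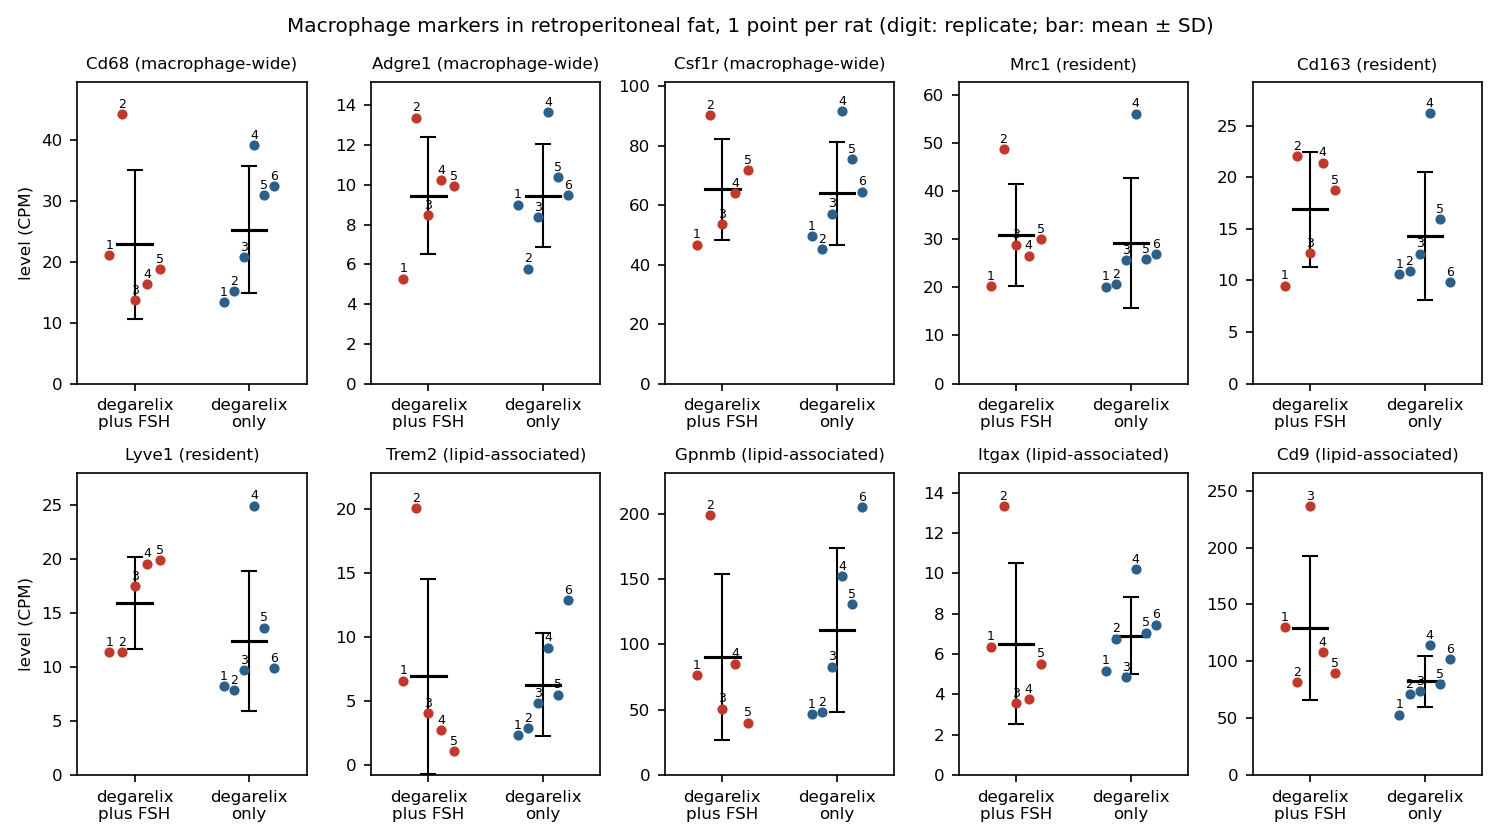
Level of each of the 10 macrophage markers in CPM, 1 panel per gene, with 1 point per rat (the digit is its replicate), degarelix plus FSH (n = 5) left of degarelix only (n = 6), and bars for the mean ± SD. The groups overlap in every panel, and the Trem2 points spread 18.0-fold from the lowest rat to the highest.

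Because the macrophage state is set by transcription factors that bind near these genes, promoter sequences of 3 markers whose levels moved together between rats (Cd68, Trem2 and Gpnmb) and of the resident marker Cd163 are shown. They are RefSeq sequences of the rat build GRCr8, from 250 bases before to 50 bases after the annotated start, 5′ to 3′ on the gene's strand; the counts themselves were made on another build, rn6. Capitals mark GAGGAA or its reverse complement, a core of sites of the myeloid factor PU.1, and TGANTCA. The latter is a loose form of the AP-1 motif that accepts any middle base. The marked stretch reads TGAGTCA in Cd68 and Gpnmb and TGAATCA in Trem2. The windows are chr10:54882392-54882691 (minus strand) for Cd68, chr9:20151730-20152029 (minus strand) for Trem2, chr4:79340878-79341177 (plus strand) for Gpnmb and chr4:158770524-158770823 (plus strand) for Cd163.
Cd68: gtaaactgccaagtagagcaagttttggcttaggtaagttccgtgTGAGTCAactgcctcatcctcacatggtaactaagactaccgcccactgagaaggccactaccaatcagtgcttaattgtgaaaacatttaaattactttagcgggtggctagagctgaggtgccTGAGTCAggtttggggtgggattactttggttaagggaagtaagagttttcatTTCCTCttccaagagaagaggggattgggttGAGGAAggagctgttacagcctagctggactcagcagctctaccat
Trem2: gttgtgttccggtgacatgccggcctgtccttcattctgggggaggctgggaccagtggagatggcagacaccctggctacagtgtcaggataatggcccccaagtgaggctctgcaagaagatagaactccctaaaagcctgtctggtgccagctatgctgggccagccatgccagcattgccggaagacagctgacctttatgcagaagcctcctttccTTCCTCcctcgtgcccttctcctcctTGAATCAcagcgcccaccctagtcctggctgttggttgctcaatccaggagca
Gpnmb: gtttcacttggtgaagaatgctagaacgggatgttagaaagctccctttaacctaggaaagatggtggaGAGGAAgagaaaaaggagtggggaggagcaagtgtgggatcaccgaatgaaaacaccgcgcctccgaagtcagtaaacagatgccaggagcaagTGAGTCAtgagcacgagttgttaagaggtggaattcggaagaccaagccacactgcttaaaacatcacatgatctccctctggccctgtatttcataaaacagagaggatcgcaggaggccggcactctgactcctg
Cd163: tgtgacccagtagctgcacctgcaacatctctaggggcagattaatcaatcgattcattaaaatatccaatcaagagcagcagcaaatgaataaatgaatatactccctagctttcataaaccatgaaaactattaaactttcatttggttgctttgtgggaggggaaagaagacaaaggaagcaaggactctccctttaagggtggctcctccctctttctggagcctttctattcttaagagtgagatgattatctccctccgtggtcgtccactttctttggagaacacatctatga

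All 10 markers matched a promoter in the RefSeq table, and 6 motifs were searched on both strands. GAGGAA stood in 7 of the 10 (Cd68, Adgre1, Csf1r, Mrc1, Trem2, Gpnmb and Cd9), against 27.6% of the 33469 promoters of the same length. TGANTCA stood in 4 (Cd68, Trem2, Gpnmb and Itgax), against 7.33% of all promoters. GGAAGT, another core of factors of the PU.1 kind that can overlap GAGGAA by its GGAA, stood in 3 (Cd68, Mrc1 and Itgax), against 22.6%. CATGTG, an E-box, stood in 4 (Cd68, Mrc1, Gpnmb and Cd9), against 14.0%. CACGTG, also an E-box (6.42% of all promoters), and TATAAA (14.2%) stood in none of the 10. The windows of Cd163 and Lyve1 held none of the 6 motifs. These matches describe letters in a short window and no binding was measured; no match says only that the letters are not in that window.

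Of the macrophage-wide markers, Cd68 (ENSRNOG00000037563), a glycoprotein of the lysosome membrane, varied most. Its level in degarelix plus FSH fat was 21.1, 44.2, 13.7, 16.3 and 18.8 CPM, against a lowest of 13.4, a median of 25.8 and a highest of 39.1 CPM in degarelix only fat. Replicate 2 of degarelix plus FSH was the highest of all 11 rats, and its other 4 rats lay inside the degarelix only range. The means were 22.8 ± 12.3 CPM (SD, n = 5) in degarelix plus FSH fat and 25.3 ± 10.4 CPM (SD, n = 6) in degarelix only fat. The log2 change of -0.15 (SE 0.35, 95% interval -0.91 to 0.62) had an adjusted p of 0.839 in edgeR's test. Without that rat the log2 change was -0.53, with an adjusted p of 0.355.

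Adgre1 (ENSRNOG00000046254) encodes an adhesion receptor used as a standard surface marker of mouse macrophages. It stood at 5.29, 13.4, 8.47, 10.2 and 9.94 CPM in degarelix plus FSH fat, against a lowest of 5.79, a median of 9.25 and a highest of 13.7 CPM in degarelix only fat. The groups covered almost the same range, and the log2 change was 0.00 (SE 0.24, 95% interval -0.51 to 0.52). That value lay at 0, and its sign was negative with DESeq2's size factors.

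Csf1r (ENSRNOG00000018414), the receptor through which macrophages receive their survival signal, had the narrowest spread of the 10. Its level was 46.7, 90.3, 53.7, 64.2 and 71.8 CPM in degarelix plus FSH fat, against a lowest of 45.2, a median of 60.9 and a highest of 91.8 CPM in degarelix only fat. The groups reached almost the same height, at 90.3 CPM with FSH and 91.8 CPM on degarelix only, and the log2 change was 0.03 (SE 0.20, 95% interval -0.41 to 0.48). As a ratio to the degarelix only level, that interval runs from 0.750 to 1.39.

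The resident markers had higher means in degarelix plus FSH than in degarelix only fat, none past the threshold. Mrc1 (ENSRNOG00000018251), the mannose receptor, stood at 20.3, 48.8, 28.9, 26.6 and 30.1 CPM in degarelix plus FSH fat, against a lowest of 20.2, a median of 25.8 and a highest of 56.2 CPM in degarelix only fat. One rat of each group, replicate 2 with FSH and replicate 4 on degarelix only, lay far above the rest, which were all between 20.2 and 30.1 CPM. The log2 change was 0.08 (SE 0.29, 95% interval -0.55 to 0.71).

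Cd163 (ENSRNOG00000010253), the receptor that takes up hemoglobin bound to haptoglobin, stood at 9.49, 22.1, 12.6, 21.4 and 18.8 CPM in degarelix plus FSH fat. In degarelix only fat its lowest level was 9.84, its median 11.8 and its highest 26.2 CPM, and that highest rat was again replicate 4. Of the degarelix plus FSH rats, 3 lay above all but 1 of the degarelix only rats, while replicate 1, at 9.49 CPM, was the lowest of all 11 rats. The log2 change of 0.24 (SE 0.29, 95% interval -0.40 to 0.87) had an adjusted p of 0.662 in edgeR's test.

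Lyve1 (ENSRNOG00000026902), a hyaluronan receptor of perivascular macrophages that lymphatic endothelium also makes, stood at 11.4, 11.4, 17.5, 19.6 and 19.9 CPM in degarelix plus FSH fat. In degarelix only fat its lowest level was 7.86, its median 9.82 and its highest 25.0 CPM. Every rat with FSH lay above 4 of the 6 degarelix only rats, but the remaining 2 of those, at 13.7 and 25.0 CPM, overlapped them. The means were 16.0 ± 4.27 CPM (SD, n = 5) in degarelix plus FSH fat and 12.4 ± 6.50 CPM (SD, n = 6) in degarelix only fat. The log2 change was 0.36 (SE 0.30, 95% interval -0.30 to 1.03), with an adjusted p of 0.499 in edgeR's test. Without degarelix only replicate 4 it was 0.70, and its adjusted p of 0.0739 was the lowest of any marker under any setting tried. Lymphatic markers summed to 27.7 to 63.1 CPM in degarelix plus FSH fat and 27.9 to 41.1 CPM in degarelix only fat, where replicate 4 was the highest. The 63.1 CPM, in degarelix plus FSH replicate 3, held 25.99 CPM of Reln. That rat was also the highest of the 11 for Ccl21 (6.76 CPM), Mmrn1 (2.005 CPM) and Tbx1 (0.891 CPM). Pdpn, Flt4, Prox1 and Itga9 were each higher in another rat. In degarelix only replicate 4, Pdpn (9.52 CPM) was the highest of all 11 rats and Flt4 (28.1 CPM) the highest of its group. The lymphatic chemokine gene Ccl21 was at 0.092 CPM there, in a group that ran from 0 to 2.68 CPM. The part of lymphatic endothelium in the Lyve1 level was not tested.

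Among the lipid-associated markers, Trem2 (ENSRNOG00000013578), the lipid-sensing receptor itself, differed most between rats. Its level was 6.61, 20.1, 4.08, 2.77 and 1.11 CPM in degarelix plus FSH fat, against a lowest of 2.37, a median of 5.18 and a highest of 12.9 CPM in degarelix only fat. Both the highest and the lowest of the 11 rats had received FSH. The log2 change was 0.13 (SE 0.65, 95% interval -1.30 to 1.56), with an adjusted p of 0.923 in edgeR's test, and without degarelix plus FSH replicate 2 it was -0.80, with an adjusted p of 0.451. It was also below 0 without degarelix only replicate 1 (-0.040) or replicate 2 (-0.022), and with limma-voom on all rats (-0.34), so no sign can be given for Trem2.

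Gpnmb (ENSRNOG00000008816), a lysosomal membrane glycoprotein of lipid-laden macrophages, stood at 76.6, 199, 51.0, 85.4 and 40.1 CPM in degarelix plus FSH fat. In degarelix only fat its lowest level was 46.8, its median 107 and its highest 205 CPM. Replicate 2 of degarelix plus FSH lay close to the highest degarelix only rat, and its other 4 rats lay below the degarelix only median. The means were 90.4 ± 63.4 CPM (SD, n = 5) in degarelix plus FSH fat and 111 ± 63.0 CPM (SD, n = 6) in degarelix only fat. The log2 change of -0.30 (SE 0.48, 95% interval -1.34 to 0.75) had an adjusted p of 0.748 in edgeR's test, and without that replicate it was -0.81, with an adjusted p of 0.339. Without degarelix only replicate 6 it was -0.030, with an adjusted p of 0.977.

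Itgax (ENSRNOG00000036703), an integrin chain of lipid-associated macrophages and dendritic cells, stood at 6.37, 13.3, 3.57, 3.77 and 5.53 CPM in degarelix plus FSH fat. In degarelix only fat its lowest level was 4.85, its median 6.91 and its highest 10.2 CPM. The 4 rats with FSH other than replicate 2 lay below that median. The log2 change was -0.09 (SE 0.33, 95% interval -0.80 to 0.62), and without replicate 2 it was -0.52, with an adjusted p of 0.262 in edgeR's test.

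Cd9 (ENSRNOG00000019556), a tetraspanin membrane protein of lipid-associated macrophages that many other cells also make, gave the only interval clear of 0. Its level was 130.4, 81.6, 237, 108 and 90.0 CPM in degarelix plus FSH fat, against a lowest of 53.1, a median of 76.7 and a highest of 114 CPM in degarelix only fat. All 5 rats with FSH lay above the degarelix only median, 2 of them lay above the whole degarelix only group, and replicate 3 stood far above the rest. The log2 change was 0.65 (SE 0.28, 95% interval 0.05 to 1.26), with an unadjusted p of 0.0372 and an adjusted p of 0.193 in edgeR's test. Replicate 3 is the library with the high Sox10 level, and Schwann cells make Cd9. Without it the mean was 102.5 ± 21.7 CPM (SD, n = 4) in degarelix plus FSH fat, against 82.3 ± 22.1 CPM (SD, n = 6) in degarelix only fat. The log2 change was then 0.32 (SE 0.20, 95% interval -0.13 to 0.76), with an unadjusted p of 0.146 and an adjusted p of 0.401 in the same test. The part of Schwann cells in the Cd9 level was not tested.

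**Figure D2:**
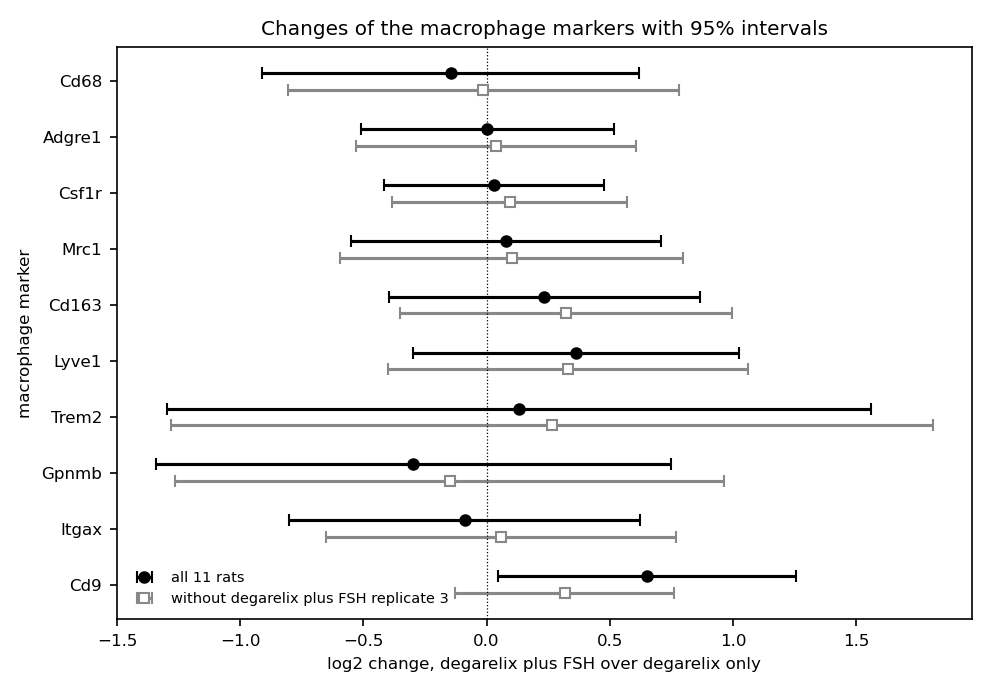
Log2 change of each marker in degarelix plus FSH over degarelix only fat on the horizontal axis, with lines for its 95% interval; filled circles are the fit to all 11 rats and open squares the fit without degarelix plus FSH replicate 3. Of the filled circles, the Cd9 interval alone is clear of 0 (0.05 to 1.26), and without that replicate it spans 0 (-0.13 to 0.76).

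The same few rats were high for several markers at once. Degarelix only replicate 4 had the highest level of Adgre1, Csf1r, Mrc1, Cd163 and Lyve1 among the 11 rats, and degarelix plus FSH replicate 2 had the highest of Cd68, Trem2 and Itgax. Without degarelix plus FSH replicate 2, the log2 changes of Adgre1, Csf1r and Mrc1 were -0.15, -0.11 and -0.15, below 0 like that of Trem2. Without degarelix only replicate 4, those of Mrc1, Cd163 and Lyve1 were 0.37, 0.50 and 0.70, and none passed the threshold in either case. The summed resident markers stood at 41.2, 82.3, 59.0, 67.7 and 68.8 CPM in degarelix plus FSH fat, against a lowest of 39.1, a median of 47.3 and a highest of 107 CPM in degarelix only fat. Some summed lists of markers of other leukocytes were also highest in these rats, while those of monocytes, neutrophils and B cells were highest in others. Degarelix plus FSH replicate 2 was the highest of the 11 for the summed markers of T and NK cells (67.6 CPM). Most of that sum was Cd4 (39.3 CPM), whose level tracked that of Csf1r over the rats (r = 0.929). Which cells made this Cd4 was not tested. Cd3e of the T cell receptor complex stood at 4.38 CPM in degarelix plus FSH replicate 2 and between 0.901 and 3.84 CPM in all others. Cd2 and Klrd1 of the same list were also highest in that rat. Cd3d, Cd3g, Cd8a, Nkg7 and Lck were each higher in another rat, and Gzmb was listed at 0 in every library. Cd3g, for example, stood at 1.85 CPM there and at 2.29 CPM in degarelix only replicate 5. Degarelix only replicate 4 was the highest for the summed markers of mast cells, at 83.4 CPM, and of dendritic cells, at 35.3 CPM. Most of the dendritic sum was Irf4 (19.5 CPM), which other leukocytes also make. Of the rest of that list, Zbtb46 (8.74 CPM), Clec9a (2.16 CPM) and Ccr7 (1.79 CPM) were also the highest of the degarelix only group in this rat. The dendritic receptor gene Xcr1, at 0.552 CPM, was the lowest of the group there, and Flt3 and Batf3 lay in between. The part of these cells in the marker levels was not tested.

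Over the 11 rats, 13 of the 45 pairs of markers had a correlation of log2 levels past an adjusted p of 0.05 by Pearson's r and 12 by Spearman's rho (two-sided permutation tests with 100000 resamples, Benjamini-Hochberg adjustment over the 45 pairs). The closest pair was Adgre1 with Csf1r, at r = 0.912 and rho = 0.927 (permutation p 9e-05 for each, adjusted p 0.00225 and 0.00405). Without the 2 rats farthest from the median Adgre1 level, r was 0.926. The level of Adgre1 over that of Csf1r varied by 12.1% between rats as a coefficient of variation, while the level of Trem2 over that of Csf1r varied by 67.1%.

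Trem2 and Gpnmb correlated at r = 0.895 and rho = 0.864 (permutation p 0.00012 and 0.00107, adjusted p 0.00225 and 0.022), and at r = 0.853 without the 2 rats farthest in Trem2. Cd68 with Gpnmb gave r = 0.905 and rho = 0.818 (permutation p 0.0004 and 0.00338, adjusted p 0.0045 and 0.0253), and r = 0.862 without the 2 farthest rats. Cd68, listed with the macrophage-wide markers, also correlated with Csf1r, at r = 0.805 and rho = 0.736 (permutation p 0.00391 and 0.0132, adjusted p 0.0176 and 0.0497), with r = 0.581 without the 2 farthest rats. Cd68 with Trem2 gave r = 0.804 and rho = 0.855 (permutation p 0.00265 and 0.00147, adjusted p 0.0132 and 0.022), and r = 0.658 without the 2 farthest rats. Cd68 with Itgax gave r = 0.856 and rho = 0.818 (permutation p 0.00053 and 0.00326, adjusted p 0.00477 and 0.0253), and r = 0.669 without the 2 farthest rats. Cd68, Trem2 and Gpnmb are also the 3 of the 10 markers whose promoter windows hold both GAGGAA and the loose TGANTCA, in Trem2 as TGAATCA. Pairs without both motifs passed as well. The Itgax window holds no GAGGAA, and the windows of Adgre1 and Csf1r, the closest pair (r = 0.912), hold no TGANTCA. No link between correlation and motifs was tested.

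Of the 3 pairs among the resident markers, 2 passed by Pearson's r and 3 by Spearman's rho. Mrc1 with Cd163 gave r = 0.817 and rho = 0.773 (permutation p 0.00081 and 0.00792, adjusted p 0.00607 and 0.0417), and r = 0.624 without the 2 rats farthest in Mrc1. Cd163 with Lyve1 gave r = 0.748 and rho = 0.736 (permutation p 0.0108 and 0.0124, adjusted p 0.0376 and 0.0497), and r = 0.797 without the 2 farthest rats. Mrc1 with Lyve1 gave r = 0.595 and rho = 0.755 (permutation p 0.0527 and 0.00982, adjusted p 0.119 and 0.0442), and r = 0.753 without the 2 farthest rats. The resident markers also went with the macrophage-wide ones. Csf1r with Cd163 gave r = 0.844 and rho = 0.764 (permutation p 0.0016 and 0.00834, adjusted p 0.00984 and 0.0417), and r = 0.778 without the 2 farthest rats. Csf1r tracked Mrc1 at r = 0.887 and rho = 0.809 (permutation p 0.00015 and 0.004, adjusted p 0.00225 and 0.0257), and at r = 0.839 without the 2 farthest rats.

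Among Trem2, Gpnmb and Itgax, 1 of 3 pairs passed by either coefficient, with r between 0.679 and 0.895; the adjusted p of r was 0.0528 for Trem2 with Itgax and 0.0626 for Gpnmb with Itgax. Between the 3 resident markers and these genes, 0 of 9 pairs passed by either coefficient, with r between -0.121 and 0.61 and a median of 0.315. Cd163 with Trem2 gave r = 0.097 and rho = 0.0636 (permutation p 0.775 for r, adjusted p 0.918), and r = -0.564 without the 2 rats farthest in Cd163. Within the 6 degarelix only rats alone, however, the 9 pairs all had positive r, between 0.348 and 0.789 with a median of 0.629. That r for these pairs differs between the groups was not tested. For Cd68 with Mrc1 the correlation rested on 2 rats, falling to r = 0.243 without degarelix plus FSH replicate 2 and degarelix only replicate 4, against r = 0.723 over all 11. Cd9 passed with none of the other 9 markers (r between -0.289 and 0.559) over the 11 rats, although r lay between 0.568 and 0.922 within the 6 degarelix only rats.

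**Figure D3:**
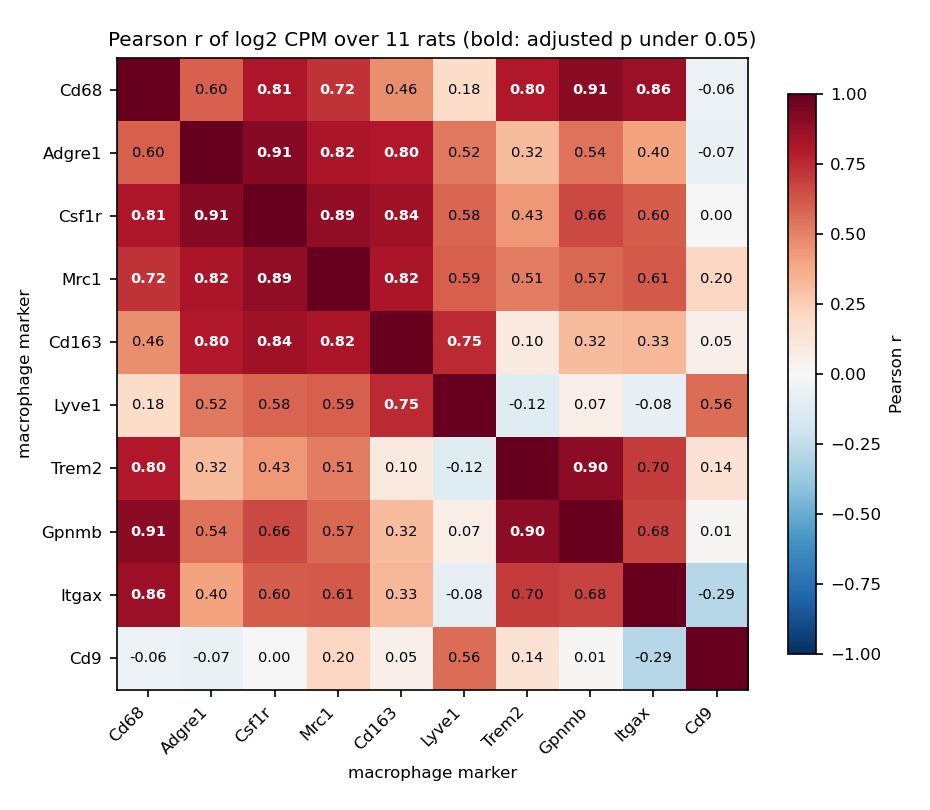
Pearson correlation of log2 level over 11 rats for each pair of the 10 markers, as a coloured grid with r written in each cell, in bold for the 13 pairs with an adjusted p under 0.05. The highest r is that of Adgre1 with Csf1r, at 0.912, and none of the 9 pairs with Cd9 is in bold.

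**Figure D4:**
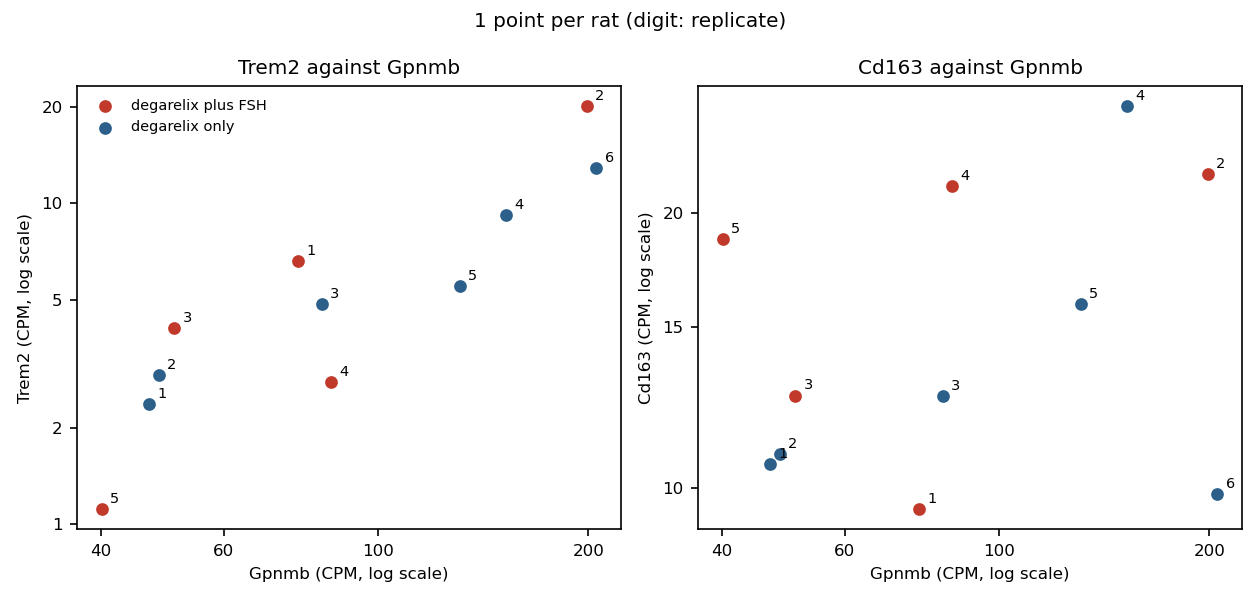
Level of Trem2 (left) and of Cd163 (right) against that of Gpnmb, in CPM on log axes, with 1 point per rat coloured as degarelix plus FSH (n = 5) or degarelix only (n = 6). Trem2 rises with Gpnmb across rats of both groups (r = 0.895), while the Cd163 points scatter (r = 0.315, one of the 9 pairs that did not pass).

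The balance between the sets within a rat varied widely. Trem2 over Cd163 was 0.696, 0.911, 0.324, 0.129 and 0.0594 in degarelix plus FSH fat, against a lowest of 0.223, a median of 0.349 and a highest of 1.31 in degarelix only fat. The 2 lowest ratios of all 11 rats belonged to rats with FSH, replicates 4 and 5, and the highest to a degarelix only rat. Gpnmb over Mrc1 had a lowest of 1.33, a median of 3.21 and a highest of 4.08 in degarelix plus FSH fat, against 2.32, 2.98 and 7.63 in degarelix only fat. The groups overlapped in both ratios.

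Outside the marker set, the 3 genes whose log2 levels tracked each marker most closely over the 11 libraries were picked from 12846, and their r values are a description. Of these 30, 5 stood in a macrophage pathway list and 2 in a marker list of another cell type. Cd68 was tracked by Itgb2, the shared chain of leukocyte integrins (r = 0.981), Ptpn7 (0.95) and St14 (0.946). Adgre1 was tracked by Tbxas1, thromboxane synthase (0.912), Glipr2 (0.902) and Emr4 (0.899). Csf1r was tracked by the leukocyte adaptor gene Lcp2 (0.936), Cd4 of the T and NK cell list (0.929) and Folr2, a folate receptor of resident macrophages (0.929). Mrc1 was tracked by Unc93b1 (0.936), Far1 (0.929) and Actr3, an actin branching factor (0.923).

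Cd163 was tracked by Folr2 (0.957), the channel gene Panx1 (0.951) and the complement gene C1qb (0.945). Lyve1 was tracked by Duox1 (0.958), Smpd3 (0.947) and the mast cell tryptase gene Tpsab1 (0.925). Trem2 was tracked by the sodium pump subunit gene Atp1b1 (0.944), Cd84 (0.921) and Serpinb8 (0.92), and Gpnmb by Cd5l, a secreted macrophage protein (0.948), Atp1b1 again (0.937) and Dnase1l3 (0.926). Itgax was tracked by the myeloid lectin gene Clec12a (0.946), Fermt3 (0.937) and Spi1, which encodes PU.1 (0.935). For Cd9 the closest were Slc25a42 (0.969), Shisa7 (0.949) and Dpysl4 (0.946).

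The genes around these markers gave few calls too. Of 89 genes tested in 7 lists of macrophage pathways, 2 passed the threshold (2.25%, against 2.27% of all genes), both higher in degarelix plus FSH fat, and 10 had an unadjusted p under 0.05 (11.2%, against 22.6% of all genes). Among the ligands, Csf1 and Il34, which both activate the Csf1r receptor, did not pass. Csf1 averaged 38.0 ± 4.98 CPM in degarelix plus FSH fat and 37.4 ± 5.06 CPM in degarelix only fat (SD, n = 5 and 6), with a log2 change of 0.02 (SE 0.11). Il34 had a log2 change of 0.03 (SE 0.11). Csf2rb, the shared chain of a family of cytokine receptors, had one of 0.33 (SE 0.22).

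For signalling and cargo, 0 of 8 genes of the Trem2 adaptor list and 0 of 20 of the wider lipid-associated list passed, with medians of -0.03 and 0.06. Tyrobp, the adaptor through which Trem2 signals, had a log2 change of -0.07 (SE 0.24). Apoe, a lipoprotein that Trem2 binds, averaged 545 ± 78.3 CPM in degarelix plus FSH fat and 432 ± 80.4 CPM in degarelix only fat (SD, n = 5 and 6). Its log2 change of 0.34 (SE 0.13) had an adjusted p of 0.167 in edgeR's test. Spp1, osteopontin, stood at 18.1, 34.7, 123, 1.77 and 1.11 CPM in degarelix plus FSH fat, highest in the library with the high Sox10 level, and its log2 change of 1.32 had an SE of 1.03. The genes of this list with the most counts are made by fat cells or by most cells. Lpl, the lipase that frees fatty acids from lipoproteins, averaged 13300 ± 2361 CPM in degarelix plus FSH fat and 16100 ± 2316 CPM in degarelix only fat (SD, n = 5 and 6), with a log2 change of -0.28 (SE 0.15). The lysosomal proteases Ctsb and Ctsd had log2 changes of -0.27 (SE 0.12) and -0.32 (SE 0.13), and the fatty acid carrier Cd36 one of 0.32 (SE 0.19); none of the 4 passed. The broad myeloid list had 0 of 23 called, with 6 changes above 0, 17 below and a median of -0.06. Its genes with the most counts included Cd74, the chaperone of antigen-presenting molecules, with a log2 change of -0.06 (SE 0.20), Lyz2, lysozyme, with -0.20 (SE 0.29), and Cd14, the endotoxin co-receptor, with 0.50 (SE 0.20).

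The resident and perivascular list had 1 of 13 called, Fcgrt, the neonatal Fc receptor, which endothelium also makes and which spares antibodies from breakdown. It stood at 303, 308, 288, 292 and 314 CPM in degarelix plus FSH fat, against a lowest of 221, a median of 251 and a highest of 273 CPM in degarelix only fat. The groups did not overlap, and the log2 change of 0.26 (SE 0.06) had an adjusted p of 0.0463 in edgeR's test. Folr2 in the same list had a log2 change of 0.24 (SE 0.28), and C1qa, a complement subunit gene of the myeloid list, one of -0.05 (SE 0.23). Selenop, a selenium carrier with the most counts of the list, averaged 425 ± 35.4 CPM in degarelix plus FSH fat and 513 ± 41.3 CPM in degarelix only fat (SD, n = 5 and 6). Its log2 change of -0.27 (SE 0.08) had an adjusted p of 0.0839 in edgeR's test. In the list of scavenging and uptake of dead cells 0 of 10 passed, with a median of -0.01. The lipoprotein receptor Scarb1 had a log2 change of 0.30 (SE 0.09) and Mertk, through which macrophages engulf dying cells, one of -0.03 (SE 0.16).

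In the list of inflammatory activation 1 of 10 passed, Cd38, an enzyme that breaks down NAD, while the list's median was -0.17 and 8 of its 10 changes lay below 0. Cd38 stood at 34.0, 34.2, 29.0, 30.4 and 37.1 CPM in degarelix plus FSH fat, against a lowest of 22.8, a median of 25.8 and a highest of 28.2 CPM in degarelix only fat. Its groups did not overlap, and its log2 change of 0.37 (SE 0.08) had an adjusted p of 0.0372. Cd40, a receptor for help from T cells, had a log2 change of -0.52 (SE 0.21), which did not pass. Tnf was listed at 0 in every library, as were all 13 mitochondrially encoded genes, so a 0 in the deposited table need not mean that a gene was not expressed.

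Among markers of other cell types, the dendritic cell factor gene Zbtb46 passed, at 11.9, 11.4, 9.28, 11.2 and 11.8 CPM in degarelix plus FSH fat, against a lowest of 5.02, a median of 7.11 and a highest of 8.74 CPM in degarelix only fat. Its groups did not overlap, and its log2 change of 0.69 (SE 0.13) had an adjusted p of 0.0318 in edgeR's test. It was 1 of 7 tested in its list, and endothelium also makes it. Of the blood endothelium list 1 of 8 passed, Tek, the receptor for angiopoietins, with a log2 change of 0.44 (SE 0.10) and an adjusted p of 0.0431. Over all marker lists of other cell types 2 of 80 genes tested were called, beside 2.27% of all genes. All 8 of the endothelium list had changes above 0, as did 6630 of the 12846 genes tested, with a median of 0.32, and their summed level was 1618 to 2638 CPM in degarelix plus FSH fat and 1425 to 1932 CPM in degarelix only fat. Whether the calls of Fcgrt and Zbtb46 follow endothelial RNA was not tested.

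Each of these 4 calls ended when some single libraries were left out, while the log2 changes stayed within 0.23 to 0.29 for Fcgrt, 0.33 to 0.42 for Cd38, 0.61 to 0.77 for Zbtb46 and 0.38 to 0.50 for Tek. Of the 11 fits that left out 1 library, Fcgrt passed only in those without degarelix plus FSH replicate 4 or degarelix only replicate 4, with an adjusted p of up to 0.113 otherwise. Tek passed only in those without degarelix plus FSH replicate 4 or degarelix only replicates 3 or 4, with an adjusted p of up to 0.106 otherwise. Cd38 was lost without degarelix plus FSH replicates 1, 2 or 5 or degarelix only replicates 1, 2, 5 or 6 (adjusted p up to 0.0954). Zbtb46 was lost without degarelix plus FSH replicates 1, 2 or 5 or degarelix only replicates 1, 5 or 6 (adjusted p up to 0.0791).

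**Figure D5:**
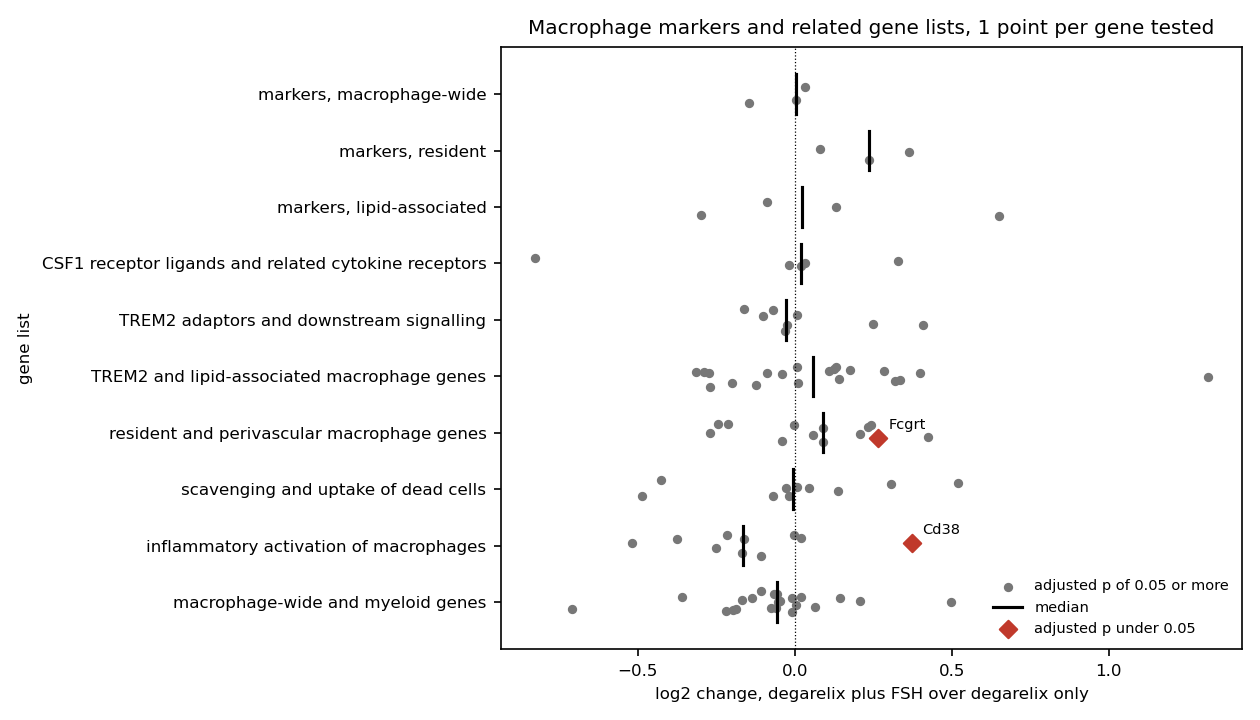
Log2 change in degarelix plus FSH over degarelix only fat of the 10 markers in their 3 groups and of every tested gene of the 7 macrophage pathway lists, 1 row per list, with grey points for genes, a bar for each median and red diamonds for genes past the threshold. The 2 diamonds are Fcgrt and Cd38, both above 0, and the other points lie on both sides of 0 in every pathway list.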

How the data were processed

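RNA of retroperitoneal fat from 11 rats was sequenced as 1 stranded paired-end library per rat, per the labels' protocols. The authors deposited raw counts, whole numbers for each Ensembl gene and rat; STAR, edgeR, DESeq2 and build rn6 are named in the submitters' processing notes, without roles or versions. How reads were assigned to genes (program, annotation, strand) is not given in the sources used here, so overlapping or antisense genes may share counts. The Pcmt1 row was left out because it holds a letter. Of 17034 genes with a count, filterByExpr kept 12846, and all 10 markers passed.

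Groups came from the labels. The comparison was fitted over all genes with edgeR 4.0.16 in R 4.3.3 (TMM, robust quasi-likelihood F test, 9 residual degrees of freedom, two-sided, Benjamini-Hochberg adjustment). Log2 levels used a prior count of 2. DESeq2 1.42.0, limma 3.58.1, other scalings and filters, the replicate block and each library left out were alternatives. The fit was tested on simulated data. RNA came from individual rats, per the labels, so the spread is that between rats. Library pairs differed by a chi-square of at least 18.6 per degree of freedom, so none was a repeat.

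The markers and lists were chosen with earlier results of these data known. Named genes are the 10 markers, every listed gene past the threshold, up to 4 further genes per list by highest count, and the 3 closest genes per marker. Apoe, Spp1, Folr2, C1qa, Xcr1, Batf3, Tnf, the flagged lymphatic genes, Mmrn1, Tbx1 and Itga9 fall outside that rule in their lists. So do Cd3d, Cd3g, Cd2, Nkg7, Klrd1 and Gzmb. All of these were named after their values were seen. Of 229 listed symbols, 217 matched directly, 1 through the gene table, 10 not at all and 1 on several rows. Some further marker genes are not reported here. The 95% intervals of log2 changes come from the edgeR fit and cover the spread between rats.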

Additional observations from a re-analysis of the deposited data

Results flagged for a closer look

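Of 138 sets of values looked at (the markers, most named genes of the lists and each summed list, within 1 treatment group), 26 had 1 rat whose gap to its nearest neighbour passed Dixon's 95% critical value. That value flags about 1 in 20 sets of normally distributed values. The CPM values were not log-transformed, and some of the genes were named after their values were seen. The share of flags therefore cannot be read against 1 in 20. Genes that move together are also flagged together. Most of the flags belong to 3 rats.

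Degarelix plus FSH replicate 2 stood above the rest of its group for Cd68 (44.2 CPM, next 21.1), Trem2 (20.1, next 6.61), Gpnmb (199, next 85.4), Itgax (13.3, next 6.37) and the lysozyme gene Lyz2 (341 CPM, next 163).

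Degarelix only replicate 4 stood above the rest of its group for Mrc1 (56.2 CPM, next 26.9), Cd163 (26.2, next 15.9), Lyve1 (25.0, next 13.7), C1qa (122, next 78.0) and Pdpn (9.52, next 4.71). The same rat was the highest for the summed resident markers (107 CPM, next 55.5) and for the summed markers of dendritic cells (35.3, next 18.7, of which Irf4, itself above the rest, was 19.5), mast cells (83.4, next 45.7) and lymphatic endothelium (41.1, next 31.8).

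Degarelix plus FSH replicate 3 stood above the rest of its group for Sox10 (64.4 CPM, next 4.81), Spp1 (123, next 34.7), Reln (25.99, next 1.26), Il34 (52.1, next 41.8) and the summed Schwann cell and melanocyte markers (66.4 CPM, next 6.31, mostly Sox10), and was the lowest for Zbtb46 (9.28 CPM).

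Single flags were Cd3e in degarelix only replicate 5 (3.84 CPM, next 2.24), Tek in degarelix only replicate 3 (119 CPM, next 100.1), the erythroid markers in degarelix plus FSH replicate 4 (2184 summed CPM, next 831), the summed resident and perivascular list in degarelix only replicate 1, the lowest of its group (1293 CPM, next 1385), and the lymphatic factor gene Prox1, at 0 CPM in degarelix plus FSH replicate 5.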

How the results depend on the processing

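The count of macrophage markers past the threshold was 0 in every setting run, including DESeq2, limma-voom, other scalings and filters, a threshold of 0.1 and each library left out. Over 200 fits of single markers, 174 kept the direction and 26 turned it, 20 of these with 1 library left out. The sign of Adgre1 is not determined: its log2 change was -0.003871 with DESeq2 size factors, -0.0009658 with no low-count filter, -0.004346 with DESeq2 and -0.00609 with the replicate block. Trem2 was -0.3405 with limma-voom and -0.3168 with its quality weights. With 1 library left out, log2 changes ran from -0.53 to 0.0228 for Cd68, -0.15 to 0.15 for Adgre1, -0.11 to 0.16 for Csf1r, -0.15 to 0.37 for Mrc1, -0.80 to 0.47 for Trem2, -0.81 to -0.030 for Gpnmb and -0.52 to 0.0581 for Itgax. The count over all genes, 292, was 1135 with DESeq2, 635 with quality weights, 962 at a threshold of 0.1 and 30 to 551 with 1 library left out (30 without degarelix plus FSH replicate 2, 551 without its replicate 4). The count of 4 listed genes was 2 with no low-count filter, 12 with DESeq2, 8 with quality weights, 12 at a threshold of 0.1 and 0 to 9 with 1 library left out. The causes were not tested. Rats with the same replicate number did not deviate together (correlations between -0.11 and 0.13), so the numbers do not pair them; with the replicate block the counts were 14 of all genes and 0 of the listed ones. Removing group means before correlating left the count of pairs within 1.5 times of 13.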
